A study of Mus musculus with 7 samples.

Results

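The cells described here were cholangiocytes, the epithelial cells that line the bile ducts, sorted by the surface protein EpCAM from livers of mice with chemically injured ducts. They came from Foxp3-GFP-DTR mice, in which Foxp3-positive regulatory T cells carry the diphtheria toxin receptor and a green fluorescent protein. All mice had been fed the duct toxicant DDC for 10 days. The 4 libraries of interest (PBS 1 to 4, of 7 in the series) came from mice given only saline (PBS), by intraperitoneal injection every 48 h, so the receptor was present but no toxin was given. The other 3 libraries, from mice given diphtheria toxin at 1 µg/kg, carry the same allele and diet and were not analysed here. No library from mice without DDC was analysed here, so the levels below describe injured ducts and give no change caused by injury. Strain background, age and sex are not in the labels, and nothing says whether each library came from 1 animal or from a pool.

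The data were counts of 3′ transcript ends, which the QuantSeq FWD kit reads from total RNA. Levels are CPM, each count scaled to 1000000 counts of its library, and are not divided by transcript length, since a 3′ library ideally gives 1 fragment per transcript. Genes were ranked by mean CPM over the 4 libraries if that mean was 100 or more and the count was above 0 in all 4. This left 2054 of the 24552 genes in the table, with 10363 genes read in at least 1 of the 4 libraries and 3624 in all 4. The ranked genes held 74.8 ± 1.78% of all counts (SD, n = 4).

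Cholangiocytes line the tubes that carry bile out of the liver, and they change its salt and water content through ion pumps, channels and exchangers. When bile flow is blocked or ducts are damaged, these cells multiply and form the ductular reaction, a state in which they also secrete cytokines, chemokines and matrix proteins. Textbook accounts tie this state to NF-kappa-B signalling, to the growth-control co-activator YAP with its TEAD partners, and to the duct factors Sox9, Onecut and Hes1. YAP is known to switch on Ankrd1, Cyr61 and Ctgf, and NF-kappa-B to switch on Cxcl1, Cxcl2 and its own inhibitor Nfkbia. Immediate early genes such as Fos and Egr1 are also known to rise when tissue is digested and cells are sorted.

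The libraries were similar in depth. Total counts ran from 4805018 (PBS 3) to 5499832 (PBS 4), and genes with a count from 5967 (PBS 1) to 8361 (PBS 4). No pair agreed within the noise of independent counts, with a chi-square per degree of freedom of 245 to 328 over the ranked genes. PBS 1 stood apart in sex-linked RNA. The Y-linked genes Ddx3y, Uty and Kdm5d were at 212, 127 and 76.3 CPM there and at 0 in the other 3 libraries, where 3 counts would have been at most 0.624 CPM. Xist, the non-coding RNA that silences one X chromosome in females, was at 128 CPM in PBS 1 and at 2336, 3668 and 1895 CPM in PBS 2, 3 and 4. PBS 4 had the most genes with a count and the highest levels of several genes of myeloid cells, given with the other markers below. Without PBS 1 the rule gave 2108 genes and without PBS 4 it gave 2086.

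Markers of duct cells were high in all 4 libraries. Epcam, the adhesion protein used for the sort, was at 730, 742, 1056 and 923 CPM in PBS 1 to 4 (863 ± 156, SD, n = 4, rank 130). Sox9, the factor that marks duct cells, was at 1104, 1025, 1244 and 1209 CPM (1145 ± 100, rank 87). Both were well above 0 in each library, and for Sox9 the highest library was close to the lowest. Krt18, a keratin of simple epithelia, was at 4254, 3294, 4221 and 2789 CPM (3639 ± 721, rank 9). Spp1, the secreted phosphoprotein osteopontin made by duct cells, was at 8705, 11391, 12226 and 11348 CPM (10918 ± 1529, rank 4). Spp1 was lowest in PBS 1 and alike in the other 3, while Krt18 was lowest in PBS 4. The list of 20 duct cell markers summed to 28480 to 31957 CPM, with 16 of its genes ranked and none at 0 in all libraries.

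Some known duct genes were low or uneven. Cftr, the chloride channel of the bile duct, was at 340, 391, 202 and 192 CPM. Pkhd1, the cilium protein fibrocystin, was at 120, 180, 13.5 and 20.2 CPM and missed the limit. Sctr, the secretin receptor, had counts in PBS 3 only (87.6 CPM). Aqp1, a water channel, was at 212 CPM in PBS 1, at 0 in PBS 2 and 3 and at 8.73 CPM in PBS 4. Pkhd1, Sctr and Aqp1 were thus not steady features of these libraries at this depth. Cftr, Pkhd1, Sctr and Aqp1 were chosen after their values were seen.

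**Figure D1:**
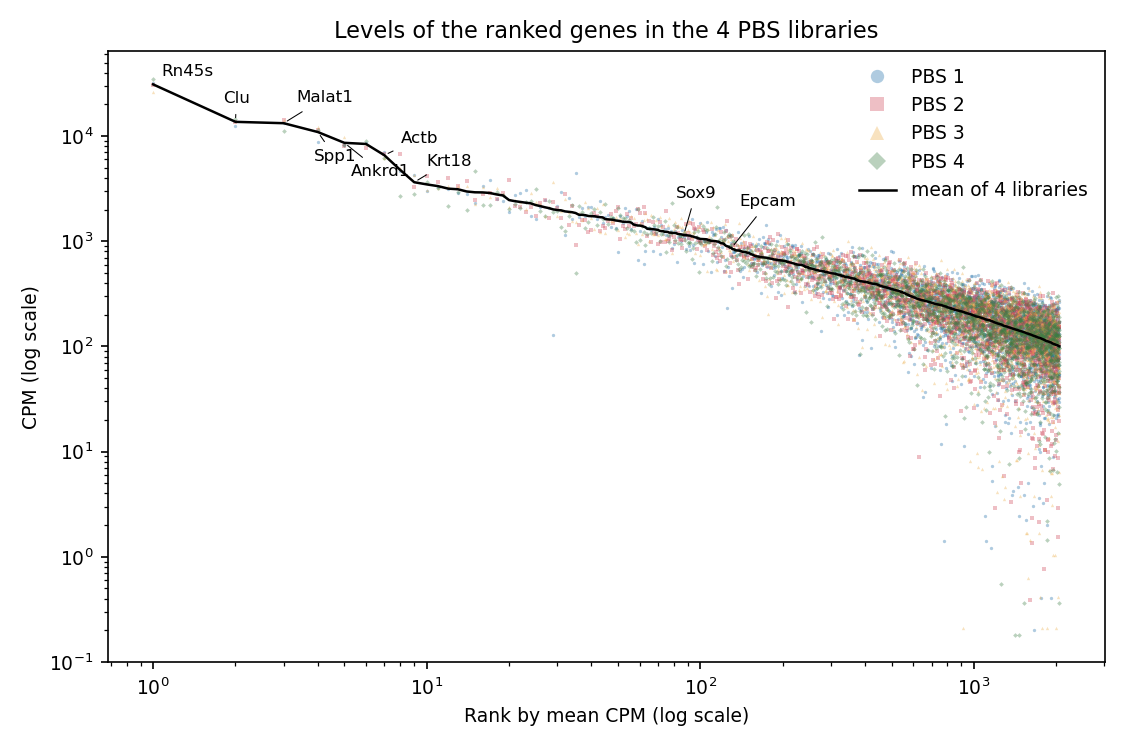
Each of the 2054 ranked genes is drawn at its rank by mean CPM (horizontal log axis), with its CPM in PBS 1 to 4 as points and the mean of the 4 libraries as a line (vertical log axis). The line falls from 30978 CPM at Rn45s to 100 CPM at the limit, and the points fan out as the level drops.

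A small set of genes led the ranking. The row Rn45s, the precursor of ribosomal RNA, was highest at 31594, 30850, 26264 and 35204 CPM (30978 ± 3673). Clu, the secreted chaperone clusterin, was the highest protein-coding gene at 12484, 13688, 13865 and 14552 CPM (13647 ± 860). Malat1, a long non-coding RNA of the nucleus, was at 13302, 14220, 14333 and 11133 CPM (13247 ± 1483). The gap between Clu and Malat1 was smaller than the spread of Malat1, so their order is not fixed by these data. Spp1 and the YAP target Ankrd1 followed, then Hsp90ab1, a cytosolic chaperone, at 8621, 7632, 8475 and 8903 CPM (8408 ± 547), and Actb, cytoplasmic beta-actin, at 7081, 6764, 6207 and 6247 CPM (6575 ± 422). Ankrd1 and Hsp90ab1 do not differ beyond their spread.

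Below these, levels declined smoothly. Only 7 genes had a mean of 5000 CPM or more, 114 had 1000 or more and 982 had 200 or more, and the median ranked gene had 192 CPM. The top 10 genes held 10.4% of the mean CPM, the top 100 held 25.3%, and 583 genes made up 50% of it. The leaders were shared: 24 to 27 of the overall top 30 were in the top 30 of each library, and 29 or 30 were in its top 100. In a GRCm38 annotation matched by symbol, 2024 of the ranked genes (98.5%) were protein coding. The 3 genes just inside the limit were Gps2, Nr3c1 and Cd2bp2, which all round to 100 CPM. Just outside were Marcksl1 (99.9), Cflar (99.8) and Slc5a3 (99.7 CPM).

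The genes were sorted into 27 functional lists, each gene counted once. The lists took in 534 of the 2054 ranked genes, 78 of the top 100, and 40.0% of the mean CPM. The list shares below cover all genes of a list, ranked or not. Lists were chosen with earlier results of these data known, so their order depends on which genes were put in them. The largest was the list of ductular reaction and secreted injury products, at 4.20 ± 0.433% of counts, with 28 of its 45 genes ranked and 11 in the top 100. Clu alone made up 32.5% of it, and without Clu, left out after its level was seen, the list held 2.83 ± 0.464%. Cytosolic ribosomal proteins followed at 3.97 ± 0.264%, then the actin cytoskeleton at 3.17 ± 0.0383%. The injury and ribosomal lists differ by less than their spread, and without Clu the injury mean is below the ribosomal and actin means. Counting error on any such share is small, with a 95% Wilson half-width of at most 0.0183% of counts, and the spread between libraries is far wider. It covers counting error only, since PCR copies are not independent molecules. In sorted bulk RNA, fewer cells of a kind and less RNA per cell cannot be told apart.

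Chemokines, complement and other genes of the injury list stood high among the ranked genes. Not all of them encode secreted proteins, and no change with injury was measured. Chemokines that draw neutrophils were abundant. Cxcl5 was at 2825, 3762, 3320 and 1977 CPM (2971 ± 765, SD, n = 4), Cxcl2 at 1884, 3793, 2122 and 2046 CPM (2461 ± 894), and Cxcl1 at 1250, 1874, 1492 and 1020 CPM (1409 ± 365). All 3 were highest in PBS 2. Ccl2, which draws monocytes, was at 233, 1570, 1115 and 674 CPM (898 ± 575), also highest in PBS 2, with PBS 1 far below the rest. Nfkbia, the inhibitor that holds NF-kappa-B in the cytoplasm, was at 3110, 3982, 3378 and 2174 CPM (3161 ± 753). Tnfaip2, a gene induced by tumour necrosis factor, was at 1137, 2786, 2506 and 1258 CPM (1922 ± 846). Nfkbia followed the same library order as Cxcl5 and Cxcl1, with PBS 2 highest and PBS 4 lowest. Cxcl2, Tnfaip2 and Ccl2 did not follow it, since they were lowest in PBS 1. Cxcl1 and Ccl2 were chosen after their values were seen.

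Complement C3 was steadier, at 2861, 3327, 3326 and 2960 CPM (3119 ± 243). The copper carrier ceruloplasmin, Cp, was at 2419, 2891, 2832 and 2753 CPM (2724 ± 211). Il1rn, the secreted blocker of the interleukin-1 receptor, was at 2108, 2327, 2261 and 1937 CPM (2158 ± 174). Their coefficients of variation (CV, the SD as a percent of the mean) were 7.80%, 7.74% and 8.04%. Lcn2, the iron-scavenging lipocalin, was at 829, 1501, 1234 and 957 CPM. Hbegf, a growth factor of the EGF family, was at 2122, 1217, 2081 and 1532 CPM, and Sprr1a, a small proline-rich protein of stressed epithelia, at 1490, 1382, 2235 and 1632 CPM. Vcam1, the adhesion molecule that binds integrins on leukocytes, was ranked 8 at 4666, 6701, 4971 and 2719 CPM (4764 ± 1632). It was again highest in PBS 2 and lowest in PBS 4. Not all of the list was read: 9 of its 45 genes had no count in any library, among them the acute-phase gene Saa1 and the antimicrobial lectin Reg3b. Lcn2, Hbegf, Sprr1a, Saa1 and Reg3b were chosen after their values were seen.

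Dmbt1, a secreted mucosal glycoprotein, was uneven. It was at 4467, 911, 1537 and 501 CPM in PBS 1 to 4 (1854 ± 1793), a CV of 96.7%. PBS 1 was 4.90 times the median of the others.

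The promoters of the NF-kappa-B genes are shown because 3 of them hold the same short sequence. The 250 bases before the RefSeq start (GRCm38.p6) are printed 5′ to 3′ on the strand of the gene, with matches to the kappa-B motif in capitals. The counts were made on mm9, another build, so promoters were joined to levels by gene symbol and no read was placed on them. The windows are Cxcl1 (chr5:90890995-90891244, + strand), Cxcl2 (chr5:90903649-90903898, + strand), Nfkbia (chr12:55492648-55492897, - strand) and the MHC class I gene H2-K1 (chr17:34000348-34000597, - strand, 1 of 2 listed starts).
Cxcl1: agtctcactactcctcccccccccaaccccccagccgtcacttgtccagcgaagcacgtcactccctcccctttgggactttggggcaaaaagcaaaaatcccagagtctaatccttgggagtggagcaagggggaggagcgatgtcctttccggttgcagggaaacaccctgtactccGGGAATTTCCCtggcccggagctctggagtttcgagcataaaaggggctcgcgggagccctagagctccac
Cxcl2: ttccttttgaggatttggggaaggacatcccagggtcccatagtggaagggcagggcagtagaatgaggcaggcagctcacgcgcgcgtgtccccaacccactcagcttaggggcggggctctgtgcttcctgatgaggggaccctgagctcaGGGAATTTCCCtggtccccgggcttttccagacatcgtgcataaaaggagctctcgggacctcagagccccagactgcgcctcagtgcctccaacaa
Nfkbia: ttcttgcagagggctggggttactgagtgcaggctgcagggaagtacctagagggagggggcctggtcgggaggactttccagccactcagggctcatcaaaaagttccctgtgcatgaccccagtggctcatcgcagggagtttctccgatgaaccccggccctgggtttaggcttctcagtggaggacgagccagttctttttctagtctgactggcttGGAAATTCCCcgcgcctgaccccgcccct
H2-K1: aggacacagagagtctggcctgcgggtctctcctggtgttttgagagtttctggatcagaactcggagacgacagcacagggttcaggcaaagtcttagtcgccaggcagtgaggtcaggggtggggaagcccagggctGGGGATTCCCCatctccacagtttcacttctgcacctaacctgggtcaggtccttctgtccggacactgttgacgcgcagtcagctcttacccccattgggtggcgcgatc
The capitals begin 71, 97, 29 and 111 bases before the start in Cxcl1, Cxcl2, Nfkbia and H2-K1. Read on either strand, Cxcl1, Cxcl2 and Nfkbia share the run GGGAATTTCC, which 22 of the 18219 genes with a promoter window hold (0.121%). Cxcl1 and Cxcl2 are paralogs that lie close together on chromosome 5, so they are not independent examples.

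A kappa-B match on either strand, counted once per gene and searched over 250 bases before to 50 after the start, was in 10.5% of the 18219 genes. Over all ranked genes with a window it was in 235 of 1642 (14.3%). Among ranked MHC class I and interferon genes it was in 5 of 8, which were H2-K1, B2m, H2-D1, Irf1 and Ifitm3. H2-K1 and H2-D1 are close copies that share matched letters, so they are not independent examples, and 8 genes are few. Among ranked immediate early genes it was in 6 of 24 with a window, against 15 of the 74 top 100 genes with one, 5 of 20 ranked proteasome genes and 3 of 11 ranked antioxidant genes. The share for immediate early genes is thus above that of all ranked genes and near that of these 3 sets. Other ranked lists were lower, such as splicing and RNA binding (3 of 44) and ribosomal proteins (6 of 56). Only 17 of the 28 ranked injury genes had a window (60.7%), too few for a share over that list. Of these 17, 9 held a match, which were Nfkbia, Cxcl2, Tnfaip2, Cxcl1, Tnfaip3, Ccl20, Pdgfa, Cxcl10 and Csf1. The rest held none, which were C3, Sprr1a, Lcn2, Wfdc2, Edn1, Muc1, Jag1 and Tnfrsf12a. Cxcl5, Ccl2, Hbegf, Clu and Vcam1 had no window in the table. A match describes the letters only, and whether any factor was bound was not measured.

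Targets of YAP were few but high. The list held 1.65 ± 0.105% of counts, with 7 of 18 genes ranked. Ankrd1, a nuclear and sarcomeric ankyrin-repeat protein used as a YAP readout, was at 8240, 8125, 9875 and 8240 CPM (8620 ± 838) and made up 52.2% of the list. PBS 3 was the highest and the other 3 were nearly equal. Cyr61, a matricellular protein, was at 3375, 2809, 3273 and 2186 CPM (2911 ± 542), and Ctgf, its relative, at 1626, 1740, 2355 and 3111 CPM (2208 ± 682). The pair ran in opposite ways at PBS 4, where Cyr61 was lowest and Ctgf highest. F3, tissue factor, which starts coagulation, was at 1921, 1388, 1171 and 1602 CPM. Amotl1, a junction protein that binds YAP, was at 636, 297, 394 and 457 CPM, and the ligand Tgfb2 at 156, 148, 249 and 144 CPM.

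The Ankrd1 and Cyr61 promoters are shown for the letters bound by TEAD factors. The 250 bases before the start are printed as above, with GGAATG on either strand in capitals, for Ankrd1 (chr19:36119845-36120094, - strand) and Cyr61 (chr3:145649986-145650235, - strand, named by a newer symbol in RefSeq).
Ankrd1: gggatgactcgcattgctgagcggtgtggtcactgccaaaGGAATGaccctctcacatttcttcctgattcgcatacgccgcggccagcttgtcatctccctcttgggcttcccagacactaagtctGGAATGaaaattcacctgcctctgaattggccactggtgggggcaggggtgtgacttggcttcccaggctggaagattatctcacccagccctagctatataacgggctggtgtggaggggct
Cyr61: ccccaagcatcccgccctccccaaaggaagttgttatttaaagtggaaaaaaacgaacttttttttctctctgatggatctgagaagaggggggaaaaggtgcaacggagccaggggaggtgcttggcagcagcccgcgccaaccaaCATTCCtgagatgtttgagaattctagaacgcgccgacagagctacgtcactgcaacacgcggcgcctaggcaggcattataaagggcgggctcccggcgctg
Ankrd1 held 2 matches and Cyr61 held 1. Among the 6 ranked YAP targets with a window, 3 held GGAATG (Ankrd1, Cyr61 and Crim1), against 15.3% of the 18219 genes. The letters were as common in ranked genes of another list, bile secretion and ion transport, where 5 of the 11 with a window held them, so the match is not particular to YAP targets. Ctgf had no window in the table.

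Factors of the duct lineage held 1.26 ± 0.182% of counts, with 13 of 24 genes ranked. Onecut2, a liver and duct homeobox factor, was at 3804, 2848, 2637 and 2217 CPM (2876 ± 672), and Hes1, the repressor that answers Notch signals, at 2923, 1650, 1918 and 1371 CPM (1965 ± 676). Both were highest in PBS 1 and lowest in PBS 4. Klf6, a zinc-finger factor, was at 2065, 1656, 2133 and 2395 CPM (2062 ± 306). Sox4, a relative of Sox9, was at 1717, 1331, 1185 and 2254 CPM, and Klf5, a factor of proliferating epithelia, at 1119, 865, 528 and 578 CPM. Hnf4a, best known from hepatocytes, was at 308, 160, 332 and 197 CPM (249 ± 83.8). This gene was picked once its level was known.

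Immediate early genes were nearly all present. Of 37 in the list 30 were ranked, none was at 0 in all libraries, and they held 1.98 ± 0.162% of counts. Dusp1, the phosphatase that turns off MAP kinases, was at 2854, 2137, 2373 and 2080 CPM (2361 ± 352). Junb and Jun, subunits of the AP-1 factor, were at 1746, 1599, 2384 and 1341 CPM and at 1131, 1039, 1362 and 1122 CPM, both highest in PBS 3. Egr1, a zinc-finger factor induced within minutes, was at 1312, 1670, 1746 and 1275 CPM. Ier3, a survival gene, was at 1370, 1805, 1562 and 1688 CPM, and Atf4, the factor of the integrated stress response, at 1461, 1384, 1659 and 1264 CPM. Fos, the partner of Jun, was lower at 698, 530, 757 and 905 CPM and was picked once its level was known. The part of tissue digestion and sorting in these levels was not tested.

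Chaperones summed to a steady 2.21 ± 0.0747% of counts, with 31 of 37 genes ranked, but single genes varied, with a median CV of 38.1%. Hspa5, the chaperone of the endoplasmic reticulum, was at 2528, 2497, 3210 and 2909 CPM (2786 ± 339), and Hsp90aa1, the inducible cytosolic Hsp90, at 2449, 2479, 1744 and 1749 CPM (2105 ± 415). Hsp90aa1 split the libraries into PBS 1 and 2 above PBS 3 and 4. Hspa1a, the heat-shock Hsp70, was far lower than Hsp90ab1, at 376, 562, 852 and 937 CPM, and Hsp90b1, the Hsp90 of the endoplasmic reticulum, was at 454, 882, 1005 and 825 CPM. Hsp90ab1 and Hspa1a have near-identical copies, so their counts are uncertain where the counting could split them. Proteasome and ubiquitin genes held 0.948 ± 0.0255%, and among them Sqstm1, an autophagy receptor, was at 1173, 1365, 1183 and 1264 CPM.

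Genes of junctions and keratins ranged from even to uneven. Cdh1, the adhesion protein E-cadherin, was at 3266, 3653, 3223 and 3216 CPM (3339 ± 210), with PBS 2 slightly above 3 nearly equal libraries. Cldn4, a tight-junction claudin of ducts, was less even at 1753, 2117, 2896 and 2396 CPM (2290 ± 482). Ctnnb1, beta-catenin, was at 1743, 1850, 1315 and 2006 CPM, F11r, a tight-junction adhesion molecule, at 1109, 1060, 1669 and 992 CPM, and Dsg2, a desmosomal cadherin, at 1216, 1006, 963 and 991 CPM. Junction genes held 1.65 ± 0.0759% of counts, with 17 of 29 ranked. Of the keratins, 5 of 7 were ranked. Krt8, the partner of Krt18, was at 1334, 1548, 1003 and 1350 CPM, Krt19, a classic duct keratin, at 506, 339, 422 and 360 CPM, and Krt7, another duct keratin, at 282, 297, 124 and 221 CPM. Krt23, a keratin of injured liver, varied more, at 643, 209, 411 and 83.6 CPM.

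The actin list had 45 of 56 genes ranked, and its share varied least of the large lists, from 3.11% to 3.20%. Single actin genes varied more. Tmsb4x, the actin-binding thymosin beta, was at 2305, 2464, 2259 and 4647 CPM, so PBS 4 was alone above 3 nearly equal libraries. Actn1, the crosslinker alpha-actinin, was at 1731, 1827, 1208 and 1332 CPM, Palld, the scaffold palladin, at 1277, 978, 1785 and 1190 CPM, and Myl12a, a myosin light chain, at 1638, 947, 1142 and 1404 CPM. Tagln2, a small actin-binding protein, was at 1251, 1148, 1229 and 1198 CPM, a CV of 3.68%, the lowest of the 589 genes with a mean of 300 CPM or more. Flna, a filamin that crosslinks actin, was almost as even, with a CV of 6.29%.

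Matrix and adhesion genes held 2.42 ± 0.246% of counts, with 31 of 46 ranked, and Spp1 alone made up 45.2% of the list. Cd44, the hyaluronan receptor, was at 1324, 1953, 1715 and 1310 CPM, Agrn, a basement membrane proteoglycan, at 795, 745, 887 and 667 CPM, and Plet1, a surface protein of progenitor-like epithelium, at 950, 807, 605 and 392 CPM. Cd24a, a surface glycoprotein of duct cells, was at 781, 399, 788 and 753 CPM, low in PBS 2 alone. Some matrix genes varied more between libraries. Col4a1, a collagen IV chain, was at 254, 181, 1014 and 365 CPM, Hspg2, the proteoglycan perlecan, at 96.1, 376, 877 and 244 CPM, and Tinagl1, a matrix protein, at 848, 394, 1483 and 541 CPM. Adamts1, a matrix protease, was at 441, 225, 676 and 234 CPM. PBS 3 was 3.99, 3.59, 2.74 and 2.89 times the median of the other libraries for Col4a1, Hspg2, Tinagl1 and Adamts1. Others did not follow, since Agrn was nearly even and Sparc, a matrix protein picked once its level was known, was at 141, 530, 182 and 533 CPM. In PBS 3, endothelial markers summed to 35.2 CPM, all of it from Cdh5 (35.2 CPM there and 0 elsewhere), and the range over libraries was 0 to 45.3 CPM. Mesothelial markers were at 64.4, 97.4, 180 and 170 CPM, and stellate cell and fibroblast markers were at 1605 CPM in PBS 3, within the range of the others. The part of other cells in the matrix genes was not tested.

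Secretion of bile relies on ion transport. The list of bile secretion and ion transport, which also holds other duct transport genes and Bicc1, held 0.944 ± 0.112% of counts with 15 of 32 ranked. Atp1b1, the beta subunit of the sodium pump, was at 1084, 1209, 1284 and 964 CPM. Car2, a carbonic anhydrase that supplies bicarbonate, was at 1226, 1306, 850 and 649 CPM. Bicc1, an RNA-binding protein of duct and kidney tubule epithelium, was at 962, 494, 665 and 682 CPM. Slc2a1, a glucose transporter, was at 611, 495, 579 and 671 CPM, and Slc3a2, the heavy chain of amino acid transporters, at 565, 512, 515 and 577 CPM. Kcnn4, a calcium-gated potassium channel picked once its level was known, was at 403, 741, 444 and 84.7 CPM. Atp1b1 and Slc3a2 were even across libraries, while Kcnn4 was low in PBS 4 alone.

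MHC class I genes, which show peptides to cytotoxic T cells, were high. H2-K1, a class I heavy chain, was at 3035, 4158, 3038 and 3649 CPM (3470 ± 542), H2-D1, another heavy chain, at 1169, 1182, 1577 and 1230 CPM, and B2m, the light chain they share, at 784, 2117, 1274 and 2090 CPM. The heavy chains are a family of close copies, so the split of counts between them is uncertain. Stat3, the factor that answers interleukin-6, was at 1297, 787, 544 and 1376 CPM. Irf1, an interferon factor, was at 215, 277, 574 and 273 CPM, and Tapbp, which loads peptides, at 486, 258, 171 and 406 CPM. Of 27 genes in the list only 8 were ranked, and they held with the rest 0.875 ± 0.110% of counts.

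Annexins and S100 proteins, which bind calcium and membranes, held 0.817 ± 0.0544% of counts with 11 of 28 ranked. Anxa2 was at 1617, 1747, 2054 and 1420 CPM and S100a6 at 1788, 1572, 1633 and 1460 CPM, both alike across libraries. Antioxidant, heme and iron genes ran from 0.655% of counts in PBS 2 to 1.23% in PBS 4, with PBS 1 and 3 between. The metallothioneins Mt2 and Mt1, which bind zinc and copper, were at 2399, 1253, 1220 and 1898 CPM and at 2041, 1463, 1200 and 986 CPM. Fth1, the ferritin heavy chain, was at 867, 824, 774 and 2332 CPM, and Ftl1, the light chain, at 83.2, 248, 477 and 867 CPM. Both ferritin chains were highest in PBS 4. They have many near-identical copies, so their counts are uncertain.

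Lysosomal genes also peaked in PBS 4, at 0.350, 0.299, 0.367 and 0.637% of counts, which is 2.13 times the lowest library, and without PBS 4 their mean was 0.339%. The proteases Ctsb and Ctsd were at 341, 300, 512 and 993 CPM and at 449, 229, 147 and 813 CPM. Psap, the precursor of saposins, which help break down sphingolipids, was at 486, 308, 191 and 1093 CPM. Apoe, a lipid carrier of hepatocytes and macrophages, was at 632, 686, 534 and 2124 CPM. Macrophage markers were also highest in PBS 4. C1qa, C1qc, Cd68 and Mpeg1, genes of macrophages, had counts in PBS 4 only, at 135, 163, 108 and 106 CPM. Their means lay between 20 and 50 CPM, where 2013 of 2457 genes had a 0 in at least 1 library. The share of all genes read in PBS 4 only was not computed. Lyz2, the lysozyme of myeloid cells, was at 1.21, 1.55, 0 and 277 CPM. The part of macrophages and other myeloid cells in the lysosomal and ferritin levels was not tested. The macrophage genes other than Lyz2 were chosen after their values were seen.

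Summed markers of other cell types were low next to the duct sum, of which Spp1 made up 36.9%. Single genes were not all low. Rgs5 (mean 1378 CPM), Gc (1302), Cd14 (1139), Alb (1002) and Apoe (994) lay above Epcam (863 CPM). Most other genes of their lists were not ranked, with 6 of 34 hepatocyte, 1 of 21 macrophage and 1 of 15 stellate cell genes ranked. Hepatocyte markers summed to 3274, 4008, 3405 and 6057 CPM, with 12 of 34 at 0 in all libraries. The highest genes of the sum encode secreted plasma proteins. Apoe, described above, is among them, and without it, left out after its values were seen, the sums were 2642, 3322, 2871 and 3933 CPM. Gc, the vitamin D carrier, was at 803, 1533, 1168 and 1705 CPM, Alb, albumin, at 725, 953, 1154 and 1177 CPM, and Trf, transferrin, at 185, 318, 118 and 237 CPM, whereas Cps1, the urea cycle enzyme, had no count. Macrophage and monocyte markers summed to 910, 1572, 1521 and 2227 CPM, of which Cd14, a receptor for bacterial lipopolysaccharide, was 844, 1443, 1464 and 805 CPM. Cd14 did not have PBS 4 as its highest library, while Csf1r, another gene of the list, did (64.6, 88.5, 57.0 and 166 CPM). Adgre1, the defining macrophage marker, had no count.

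MHC class II genes summed to 110, 182, 334 and 1129 CPM. Cd74, their invariant chain, was even at 107, 150, 212 and 139 CPM, but H2-Aa, H2-Ab1 and H2-Eb1 reached 401, 233 and 231 CPM in PBS 4 and at most 41.2 CPM elsewhere. Neutrophil markers summed to 24.5, 0, 0 and 355 CPM, and S100a8 and S100a9 had counts in PBS 4 only (204 and 124 CPM). The means of S100a8 and S100a9 were 51.1 and 31.0 CPM, levels at which many genes had a 0 in at least 1 library. T and NK cell markers summed to 59.9, 0.193, 0.208 and 77.3 CPM, with 15 of 18 at 0. Foxp3 and Cd3e had no count, so these sorted cells say nothing of the regulatory T cells. Ptprc, the marker of all leukocytes, had counts in PBS 4 only, at 15.6 CPM. B cell markers (8 genes) and red cell markers (9 genes) were at 0 throughout. Cps1, Adgre1, Foxp3, Cd3e, Ptprc, Pdgfrb and Pecam1 were chosen after their values were seen.

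Stellate cell and fibroblast markers summed to 704, 2228, 1605 and 1644 CPM, of which Rgs5, a G-protein regulator of pericytes, was 608, 2095, 1590 and 1217 CPM. The other genes of that list were patchy. Vim, the mesenchymal filament vimentin, was at 321 CPM in PBS 4 and at 0 elsewhere, Dcn, the proteoglycan decorin, at 104 CPM in PBS 4 only, and Col1a2, a collagen I chain, at 107 CPM in PBS 2 only. Pdgfrb, a defining receptor of stellate cells, had no count in any library. Endothelial markers summed to at most 45.3 CPM, with 9 of 14 at 0 in all libraries, including Pecam1. Mesothelial markers summed to 64.4 to 180 CPM and platelet markers to 0 to 66.6 CPM.

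**Figure D2:**
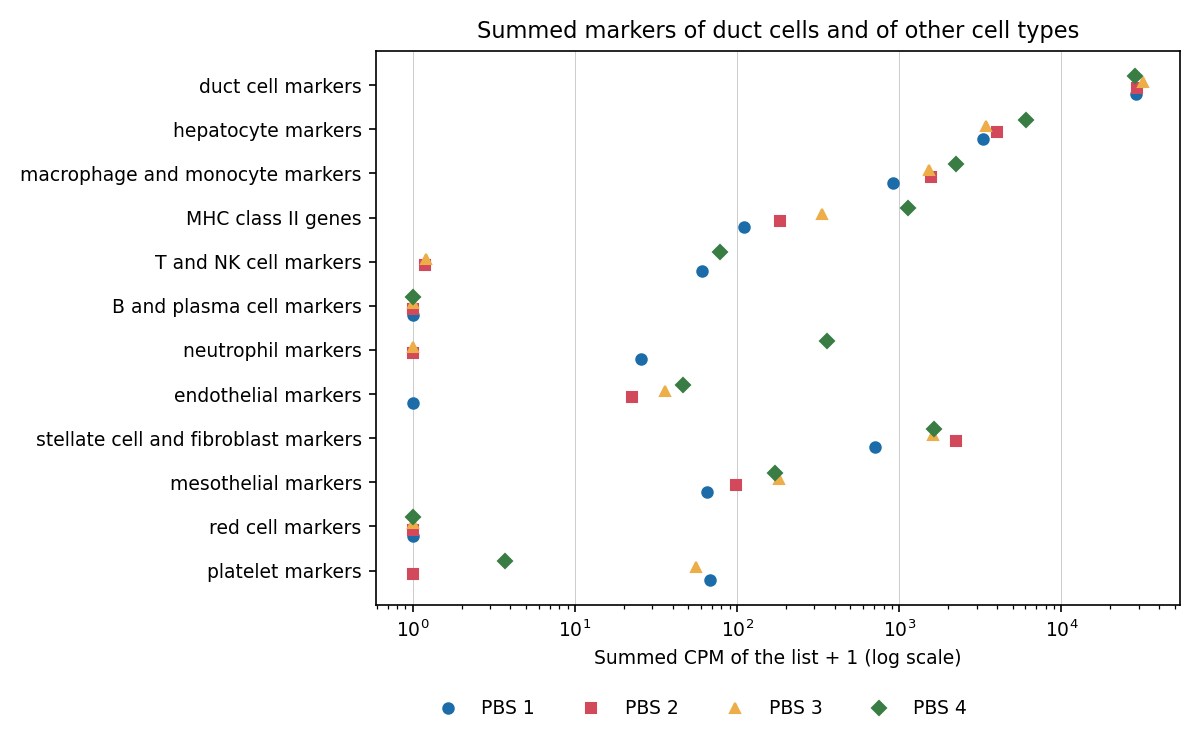
Summed CPM of each marker list plus 1 (horizontal log axis) is drawn for PBS 1 to 4. The duct list lies between 28480 and 31957 CPM in all libraries, the hepatocyte list between 3274 and 6057 CPM, and PBS 4 is highest in the MHC class II (1129 CPM) and neutrophil (355 CPM) lists.

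Genes of basic cell function made up the rest of the lists. Ribosomal proteins had 74 of 88 genes ranked, led by Rps21 at 2572, 1412, 1896 and 1731 CPM and Rplp1 at 1612, 2179, 1555 and 2200 CPM. Splicing and RNA-binding genes held 2.51 ± 0.179% with 50 of 75 ranked, led by Son, a nuclear speckle protein (1350, 1119, 1626 and 1160 CPM). Translation factors held 1.84 ± 0.0616%, led by Eef1a1, which brings aminoacyl-tRNA to the ribosome (2156, 2067, 1744 and 1957 CPM). The respiratory chain and ATP synthase held 1.02 ± 0.0921% with 32 of 84 ranked, led by Atp5b, a subunit of the ATP synthase (555, 495, 728 and 723 CPM). Long non-coding RNAs held 1.88 ± 0.251% with 9 of 19 ranked. Beside Malat1 and Xist these included Neat1, the scaffold of paraspeckles (786, 916, 646 and 1001 CPM). The table had no rows of mitochondrially encoded genes. Cholesterol and fatty acid genes held 0.361 ± 0.0436% and tubulin and cilium genes 0.273 ± 0.0462% of counts.

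Cell cycle genes were low, at 0.209 ± 0.0467% of counts with 6 of 30 ranked. Ccnd1, the cyclin of early G1, was at 887, 362, 823 and 391 CPM, and Cdkn1a, the cell cycle inhibitor, at 102, 286, 374 and 334 CPM. Mki67 and Top2a, genes of dividing cells, were at 0, 0, 39.1 and 94.2 CPM and at 0, 0, 16.9 and 107 CPM. Both were at 0 in PBS 1 and 2, and Mki67 and Top2a were chosen after their values were seen. Histones and chromatin genes held 0.754 ± 0.0338% of counts, but 65 of 102 were at 0 in all libraries. Whether the 3′ kit could read all histone transcripts was not tested, so these 0s do not show silent genes and are no measure of cell division. The list was led by H3f3b, a replacement histone (2074, 1590, 1576 and 1890 CPM).

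Some genes that every cell uses read low. Gapdh, the glycolytic enzyme, was at 46.4, 61.1, 21.9 and 35.6 CPM, Actg1, gamma-actin, at 0.607, 0.580, 0.208 and 0 CPM, and Eno1, an enolase, had no count. Pgk1, another glycolytic enzyme, had counts in PBS 2 only (10.2 CPM). Only 3 of 15 glycolysis genes were ranked, and the list held 0.0916 ± 0.0136% of counts. Gapdh, Actg1, Eno1 and Pgk1 share sequence with many copies, so their counts are uncertain and the low glycolysis share is no measure of the pathway. The cause was not tested. These 4 genes were chosen after their values were seen.

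The spread between libraries was far wider than counting error at all levels. The median CV of the ranked genes was 43.5%, against 3.20% from counting error alone, and for the top 100 it was 19.9% against 1.12%. The rule asks for a count in all 4 libraries, which limits the spread a ranked gene can have. Over all genes of a level, the median CV fell from 57.3% at 100 to 200 CPM to 39.3% at 200 to 500, 28.0% at 500 to 1000, 21.5% at 1000 to 2000 and 14.9% above. All 4 libraries lay within 2-fold for 547 ranked genes and for 79 of the top 100, while 217 ranked genes spanned more than 10-fold. Across the ranked genes, Pearson correlations of log2 CPM between libraries were 0.441 to 0.600, and 0.685 to 0.801 over the top 500. These are across genes, which are not independent, and all pairs share the way the genes were chosen.

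**Figure D3:**
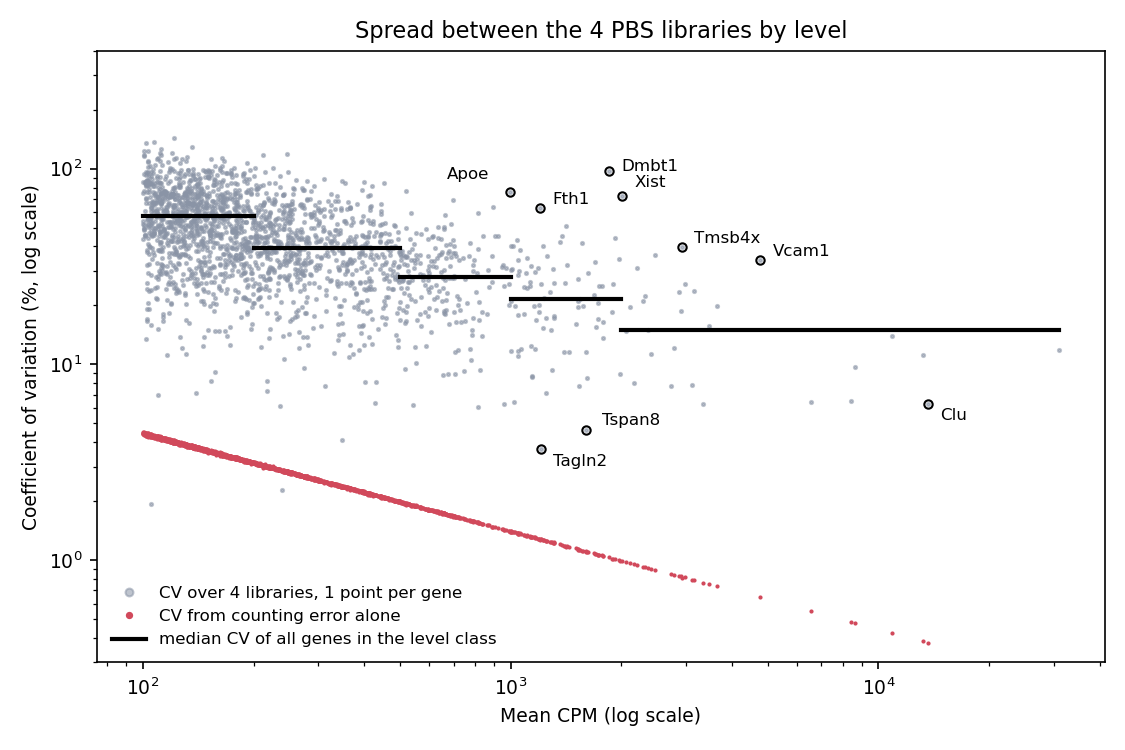
The CV over the 4 PBS libraries (vertical log axis, %) is plotted against mean CPM (horizontal log axis), with 1 grey point per ranked gene, red points for counting error alone and black bars for the median CV of all genes in a class of level. The bars fall from 57.3% to 14.9% and stay far above the red points, with Tagln2 and Dmbt1 as examples of low and high spread.

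Counts of 0 beside high counts were common. Of the 2145 genes with a mean of 100 CPM or more, 91 had a 0 in at least 1 library and were not ranked, with 42 of these 0s in PBS 1, 33 in PBS 3, 17 in PBS 2 and 1 in PBS 4. The highest was Nsa2, a ribosome assembly factor, at 724, 363, 0 and 111 CPM. Gfpt1, the first enzyme of the hexosamine pathway, was at 576, 0, 263 and 91.3 CPM, and Igf2r, the receptor that carries enzymes to lysosomes, at 0, 147, 387 and 167 CPM. Gstm1, a glutathione transferase, was at 0, 131, 285 and 270 CPM, and Mcfd2, a cargo receptor of the secretory pathway, at 272, 241, 0 and 169 CPM. At 100 to 200 CPM 1.96% of all values were 0, at 50 to 100 CPM 11.9% and at 20 to 50 CPM 33.0%. A gene at these lower levels thus often went unread in a library, so its absence there is not shown. The cause of these 0s was not tested.

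Each library had its own high and low genes. A value more than 2-fold above the median of the other 3 was found for 313 ranked genes in PBS 1, 239 in PBS 2, 279 in PBS 3 and 208 in PBS 4. Besides Dmbt1, PBS 1 was highest for Cavin1, a coat protein of caveolae, at 802, 208, 205 and 200 CPM, and for Diaph1, a formin that builds actin filaments, at 792, 245, 146 and 205 CPM. Plat, tissue plasminogen activator, was at 634, 1361, 1388 and 1365 CPM, low in PBS 1 alone. Among steady genes, Tspan8, a tetraspanin of duct-like epithelia, was at 1664, 1506, 1571 and 1653 CPM (CV 4.64%) and Tm4sf4, a tetraspanin-like membrane protein, at 1502, 1391, 1571 and 1673 CPM (7.71%). Plat and Tm4sf4 were chosen after their values were seen.

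**Figure D4:**
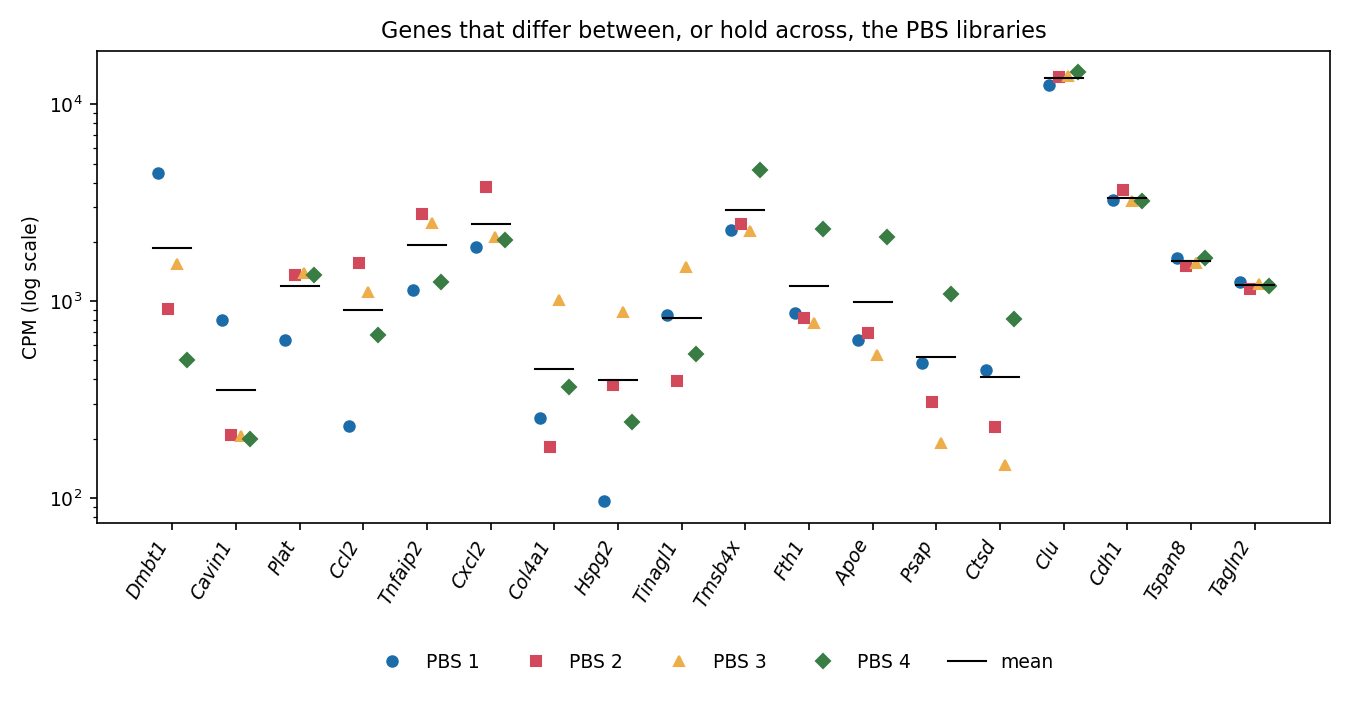
The CPM of 18 genes in PBS 1 to 4 (vertical log axis) is shown with a bar for the mean. Dmbt1 and Cavin1 are high in PBS 1, Col4a1, Hspg2 and Tinagl1 in PBS 3, and Tmsb4x, Fth1, Apoe, Psap and Ctsd in PBS 4, while Clu, Cdh1, Tspan8 and Tagln2 lie close together.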

How the data were processed

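The authors deposited raw counts of reads for each gene symbol, made on mm9 per the submitters' processing notes. Per the labels' protocols, 100 ng of total RNA went into each QuantSeq FWD library. Not given in the sources used here are the aligner, the counting tool, its use of strand, any molecular identifiers and the annotation. Sample titles gave the group and replicate number. CPM was computed on column totals, with means and SDs over the 4 PBS libraries. No group contrast was made. Dixon's gap test was used for a library far from the other 3. Pairs of libraries were also compared by a chi-square per degree of freedom, read without a p-value, which treats each read as independent. Values of 0 were kept as 0. The CPM worth of 3 counts in a library was given beside them as a floor, and list shares had 95% Wilson intervals.

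The genes and lists were chosen with earlier results of these data known. The genes named were the top 30, 4 duct markers (Epcam, Krt18, Spp1, Sox9), up to 6 ranked genes per functional list, up to 4 genes per marker list, the 8 genes of highest and the 8 of lowest CV at 300 CPM or more, 3 on each side of the limit, and the 5 highest genes with a 0. Others are said to be chosen later, and any that is named for its promoter only was also chosen later. A gene in several lists counted for the first. A few genes that the rule takes are not reported here.

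Promoter windows came from RefSeq (GRCm38.p6) for 18219 of 24552 symbols, 443 of them through an older name. Alternatives were limits of 50 and 200 CPM, other conditions on 0s, TMM (edgeR 4.0.16) and median-of-ratios (DESeq2 1.42.0) scaling, the median, totals without Rn45s and leaving out each library. Python 3.11.15, pandas 2.3.3 and matplotlib 3.10.9 were used, and the scripts were tested on simulated data.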

Additional observations from a re-analysis of the deposited data

Results flagged for a closer look

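Of 278 levels and list sums tested, 49 had 1 library far from the other 3, by the gap to the nearest library divided by the whole range (above Dixon's 95% critical value for 4 samples). Chance flags about 1 in 20 such groups, but many of the genes were chosen for their spread or after their values were seen, and genes of a library are not independent. The number and its split by library are therefore descriptions and cannot be read against that rate. By library, 11 lay in PBS 1, 7 in PBS 2, 8 in PBS 3 and 23 in PBS 4. The ratio is 1 wherever the other 3 libraries are equal, most often at 0. That was so for Ddx3y, Uty, Kdm5d, Camp and the Y-linked list in PBS 1, for Col1a2, Krt14 and Pgk1 in PBS 2, and for Cdh5, Itga2b and Sctr in PBS 3. In PBS 4 it was so for S100a8, S100a9, Retnlg, Gzmb, Stab2, Ptprb, Vim, Dcn, C1qa, C1qc, Mpeg1, Cd68 and Ptprc. Krt14 rested on 1 count.

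PBS 4 was also far above the rest for the neutrophil list (0.931), Lyz2 (0.994), Fcer1g (0.939), H2-Aa (0.978), H2-Ab1 (0.990), H2-Eb1 (0.832), Apoe (0.905), Fth1 (0.941), Tmsb4x (0.914) and Top2a (0.842). PBS 1 was far above for Cavin1 (0.987), Diaph1 (0.846), Chd4 (0.865), Pf4 (0.959) and Aqp1 (0.959), and far below for Plat (0.963). PBS 2 was far above for Cdh1 (0.886) and Cxcl2 (0.875), and far below for Tubb4b (0.894) and Cd24a (0.912). PBS 3 was far above for Ankrd1 (0.934), Tgfb2 (0.886), H2-D1 (0.851), Ankrd11 (0.869) and Msln (0.841). For Cdh1 the far library was only 3653 CPM against 3216 to 3266 CPM, and for Ankrd1 9875 against 8125 to 8240 CPM.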

How the results depend on the processing

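The number of ranked genes depended on the limit, with 3116 genes at 50 CPM and 982 at 200 CPM against 2054. Other settings gave 1941 (median over libraries) to 2145 (no condition on 0s). Leaving out 1 library gave 2086 to 2147 genes and shared 91.9% to 94.2% of the 2054, with 27 to 29 of the top 30 kept. The share of counts was then 75.7% to 76.2% and the median CV 40.0% to 43.1%. TMM scaling gave 2052 genes and median-of-ratios scaling 2050. Without Rn45s in the totals the actin share was 3.27% and the proteasome share 0.979%, since the totals are smaller. All 250 named levels stayed within 1 SD in every setting run, which for leaving out 1 of 4 libraries is so by construction. No paired analysis was possible because only 1 group was used, with no comparison between groups. At this depth, 3 counts are 0.545 to 0.624 CPM, but the spread between libraries sets the limit. With 4 libraries of unstated origin, SDs may be partly technical.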

Other observations

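Several genes in no functional list ranked among the top 100, such as Brd2, Plaur and Igfbp7. Ambp and Ttr ranked lower, at 239 and 1068. These named genes were chosen after their values were seen. Brd2, a chromatin reader of the BET family, was at 1713, 1439, 1847 and 2142 CPM in PBS 1 to 4. Plaur, the urokinase receptor, was at 1314, 1305, 764 and 959 CPM, higher in PBS 1 and 2 than in PBS 3 and 4. Igfbp7, a secreted growth factor binding protein, was at 657, 2013, 938 and 2034 CPM, so PBS 2 and 4 lay above PBS 1 and 3. Ambp, a plasma protein precursor counted with the duct markers, was at 598, 718, 374 and 655 CPM, and Ttr, the thyroid hormone carrier of hepatocytes, was at 402, 86.4, 6.87 and 252 CPM.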
